A study of Homo sapiens with 6 samples.

Results

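The genes described here are the numbered zinc finger (ZNF) genes of a table of N6-methyladenosine (m6A) peaks from HEK293T, a widely used line of human embryonic kidney origin. Members were all genes whose symbol is ZNF followed by digits and at most 1 letter, and the rule gave 199 genes with 578 peaks, of 9278 named genes and 26475 peaks. Members were chosen by the presence of a listed peak, so carrying a peak is no finding. By their RefSeq gene entries 197 of the members were protein-coding and 2 were transcribed pseudogenes.

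The study asked which RNAs the tRNA methyltransferase TRMT10A binds and how m6A changes without it. RNA immunoprecipitated with an m6A antibody and its input were sequenced from cells given siRNA to TRMT10A (TRMT10A KD) or a control siRNA (Ctrl KD), with 1 library of each kind in each arm, from poly(A)-selected RNA depleted of rRNA. The siRNAs were transfected with Lipofectamine RNAiMax, and all peaks stand in 1 merged table with no value for any single library. RNA bound to TRMT10A was captured by CLIP, crosslinking followed by immunoprecipitation, in 2 replicates labelled with a TRMT10A siRNA tag, with no control immunoprecipitation among the samples used here and nothing in the labels to say that the replicates were separate cultures.

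ZNF proteins bind DNA, and some RNA, through tandem fingers in which a pair of cysteines and a pair of histidines hold a zinc ion. Many also carry a KRAB domain, through which the corepressor TRIM28 and the histone methyltransferase SETDB1 are brought to transposable elements and other targets. Neighbouring fingers are joined by a short, highly conserved linker, and many of the genes lie in clusters on chromosome 19, with the whole run of fingers usually coded by the last exon. The m6A mark is written by METTL3 and METTL14 within a short consensus called DRACH, whose best known form is GGACT in DNA letters, and in most mRNAs it gathers in long internal exons and around the stop codon.

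Stretches around GGACT from 9 peaks show where this core motif falls in finger-coding sequence and elsewhere. They are given 5′ to 3′ on the transcript strand, in hg38 coordinates, with the core motif in capitals, as read from GENCODE release 29 transcripts. In the first 4 the motif lies in a finger's histidine pair, in the next 4 in its cysteine pair, and in the last 3 outside any finger. The printed peaks are among those whose core motifs were all at positions that the authors' table lists. Positions were matched without gene names, and 64.7% of ZNF positions moved by 12 to 40 bases also matched. A match therefore cannot establish that the authors found the motif in that gene.
ZNF700, chr19:11949850-11949872, + strand: agcatggtaGGACTcacactgga
ZNF700, chr19:11949934-11949956, + strand: tgcatgaaaGGACTcacactgga
ZNF182, chrX:47977145-47977167, − strand: tacattacaGGACTcacacagga
ZNF460, chr19:57291263-57291285, + strand: ggcaccagcGGACTcacaatgga
ZNF316, chr7:6652799-6652821, + strand: cccgtgcccGGACTgcggcaagc
ZNF689, chr16:30604794-30604816, − strand: cccgtgcccGGACTgcgagcggc
ZNF764, chr16:30555538-30555560, − strand: cccctgcccGGACTgtggccgcg
ZNF791, chr19:12628849-12628871, + strand: taaatgtagGGACTgtgggaagg
ZNF644, chr1:90937491-90937513, − strand: acaaaaaatGGACTtgactatgc
ZNF644, chr1:90916885-90916907, − strand: atcttccacGGACTggagctggc
ZNF217, chr20:53575880-53575902, − strand: gttaccgcaGGACTgtgtgtatc

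A second set shows the linker between fingers, whose codons hold AAACC, another DRACH word, here in capitals. Each AAACC lies inside an m6A peak, and the last base of the ZNF664 stretch falls just past its peak.
ZNF700, chr19:11949861-11949886, + strand: actcacactggagagAAACCctatga
ZNF184, chr6:27451463-27451488, − strand: actcatactggagagAAACCttataa
ZNF721, chr4:443970-443995, − strand: attcatactggagagAAACCttacaa
ZNF84, chr12:133058489-133058514, + strand: attcacactggagagAAACCctatga
ZNF664, chr12:124012718-124012743, + strand: gtccacactggagagAAACCctatag

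Most ZNF genes carried few peaks. The 199 genes had 2.90 ± 2.05 peaks each (mean and SD over genes), with a median of 2 and a highest count of 12. A single peak was listed for 59 genes (29.6%), and 37 genes (18.6%) had 5 or more. The other 9079 genes had a mean of 2.85 and a median of 2, with 29.2% at a single peak and 16.5% at 5 or more, so the distributions lay close together.

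**Figure D1:**
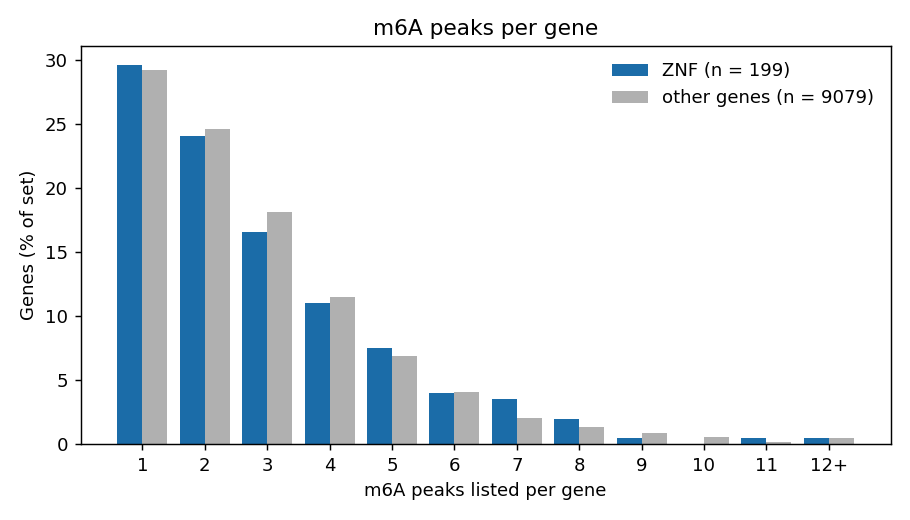
Share of genes (percent of each set) by the number of m6A peaks listed per gene, for 199 ZNF genes (blue) and 9079 other genes (grey). Both sets are highest at 1 peak, with 29.6% and 29.2% of genes, and fall off together towards higher counts.

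ZNF peaks were also of ordinary length. They ran from 100 to 509 bases with a median of 176 and quartiles of 151 and 217, beside a median of 175 over all peaks. Starts on the transcript, counted from 1 at its 5′ end, ranged from 1 to 9445 with a median of 1301.5, against a median of 1166 over all peaks. Ends had a median of 1495 and reached 9600. Starts within the first 100 bases were rarer among ZNF peaks, with 19 (3.29%) against 6.29% of all peaks.

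Peaks of the same ZNF transcript often stood side by side. Of 379 gaps between neighbouring peaks 192 (50.7%) were under 200 bases, and in 70 pairs (18.5%) the peaks touched. Over all genes these shares were 49.3% and 20.4%. Touching peaks may be a single enriched stretch that was cut, and merging them left the ZNF median at 2 peaks per gene.

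ZNF106, which codes for an RNA-binding protein, had the most peaks. Its 12 peaks reached from base 407 to base 7400 of a transcript of 10460 bases, and covered 23.5% of it. Placed on the annotated transcript, 11 were coding and 1 lay in the 3′ UTR, and 3 touching peaks formed a run from 2871 to 3516. ZNF106 held only 2 finger patterns, so its peaks lay over coding sequence that is mostly not finger.

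ZNF451, a SUMO ligase, had 11 peaks from 213 to 7831, of which 6 were coding and 5 lay in the 3′ UTR. Its last peak ended 7831 bases into a transcript of 9478 bases. ZNF609, known for the circular RNA made from its second exon, had 9 coding peaks from 22 to 3947. The first of them, from 22 to 530, was the longest of all ZNF peaks at 509 bases.

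Genes with 8 peaks were ZNF652, ZNF644, ZNF445 and ZNF264. ZNF644, a partner of the histone methyltransferases G9a and GLP, had 1 peak in the 5′ UTR and 7 coding peaks between 171 and 4198, which covered 30.3% of its transcript. ZNF445, which helps to keep genomic imprints, had 6 coding peaks and 2 in the 3′ UTR between 498 and 4602, all in the 5′ part of a transcript of 18299 bases. ZNF264 had 8 coding peaks between 676 and 2316, in 2 runs of 4 touching peaks, from 676 to 1412 and from 1527 to 2316. The peaks of ZNF652, a transcriptional repressor, ran from 545 to 2510 with 1 more at 9272 to 9400, and its transcript could not be matched to the reference.

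ZNF281, a factor tied to stem cell identity and epithelial-mesenchymal transition, had the longest unbroken run. Of its 7 coding peaks 5 touched, from 198 to 1321, a stretch of 1124 bases, and peaks covered 31.0% of the transcript. Its 3 fingers lay at 912 to 1142, so that most of the run stood before them. ZNF638, which binds nucleic acids and takes part in silencing of unintegrated retroviral DNA, had 7 peaks between 445 and 6114. ZNF783, ZNF507, ZNF831, ZNF532 and ZNF805 also had 7 each. ZNF687, ZNF618 and ZNF710 held the next longest peaks after that of ZNF609, of 502, 484 and 484 bases, all coding.

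**Figure D2:**
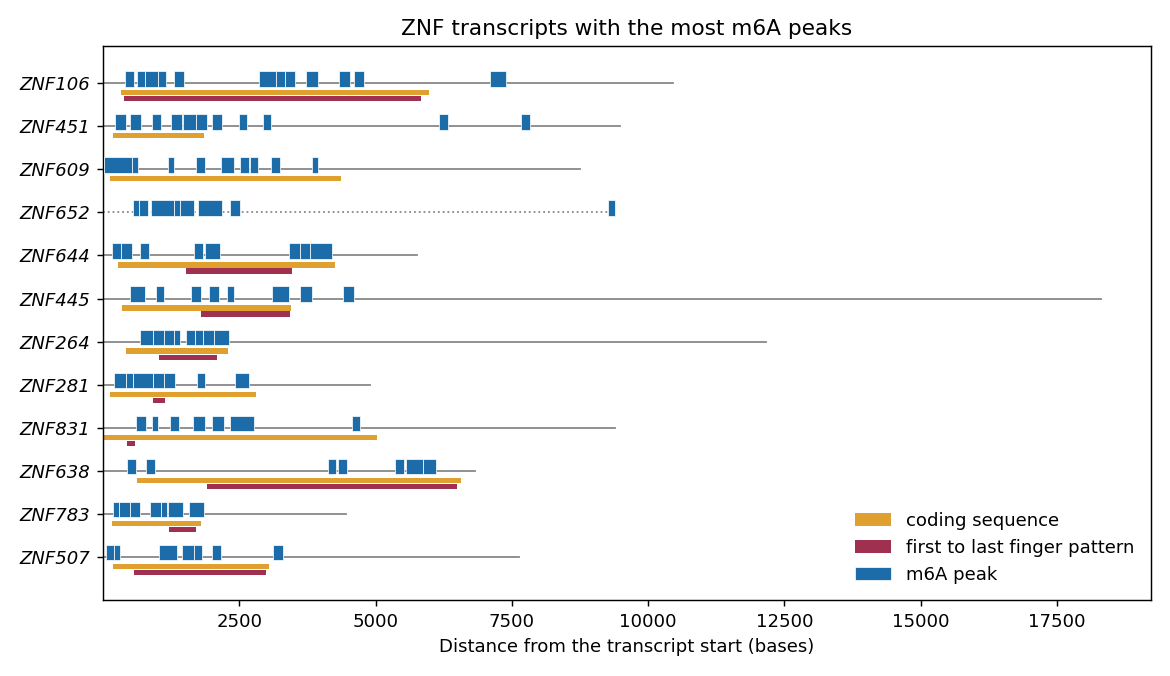
Listed m6A peaks (blue) along 12 of the 14 ZNF transcripts with 7 or more peaks (ties at 7 taken by total peak length, which leaves out ZNF532 and ZNF805), by distance from the transcript start in bases, with coding sequence (orange) and the span from the first to the last finger pattern (red) where 2 or more patterns were found. ZNF106 carries 12 peaks spread over coding sequence, ZNF281 has a run of 5 touching peaks before and across its fingers, and ZNF652 is drawn as a dotted line to its last peak because its transcript was not matched.

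Of 30 ZNF genes listed for a known role, 23 carried peaks, 103 in all, with a median of 4 among those 23. Over all protein-coding genes 44.6% had a peak, with 38.9% for annotated ZNF genes, and the median over all genes with peaks was 2. The list was chosen with earlier results known, and these shares were not tested. ZNF217, a breast cancer oncogene whose mouse counterpart is known to bind the m6A writer METTL3, had 6 coding peaks from 588 to 3235. ZNF598, the ubiquitin ligase that marks collided ribosomes, had 4 coding peaks from 831 to 2850. ZNF148, which binds GC-rich promoters, had 4 peaks from 110 to 2764. ZNF592, which shares chromatin complexes with ZNF687, had 5 coding peaks from 1681 to 4248, and ZNF318 and ZNF407 had 6 each.

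Other genes of that list had fewer. ZNF143, a promoter-bound activator, had 3 coding peaks. ZNF207, a spindle assembly factor, had 2 coding peaks and 1 in the 5′ UTR. ZNF274, which brings SETDB1 to the ends of other ZNF genes, had 3 between 1095 and 2340, and ZNF462 had 3 between 5921 and 7939. ZNF263, ZNF326 and ZNF622 had 2 each. ZNF335, ZNF384, ZNF574 and ZNF91 had 1 each, and that of ZNF91, which represses SVA elements, lay in the 3′ UTR at 4349 to 4470. ZNF93, ZNF423, ZNF521, ZNF593, ZNF703, ZNF711 and ZNF827 had none, and the tables do not say which of these are expressed in HEK293T cells.

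To place peaks on gene structure, 513 ZNF peaks (88.8%) of 179 genes were matched to a GENCODE transcript, and all values by region, exon and motif rest on these. Of 111 core motifs found in ZNF peaks 82.0% fell at positions listed in the authors' motif column, beside 64.7% when positions were moved by 12 to 40 bases. Places are therefore approximate. Placed by its midpoint, a ZNF peak lay in coding sequence in 400 cases, 78.0% (95% Wilson interval 74.2 to 81.3), in the 3′ UTR in 69, 13.5% (10.8 to 16.7), and in the 5′ UTR in 39, 7.60% (5.61 to 10.2). The 5′ UTR share depended on placing, and was 10.5% by peak start and 3.51% by peak end. The other 5 lay on noncoding transcripts. Intervals cover counting error only, and peaks of a gene are not independent.

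Peaks of the other genes lay less in coding sequence, at 69.9% (69.3 to 70.5) of 23276 peaks, and more in 3′ UTRs, at 19.5% (18.97 to 19.98). These differences were not tested, and the intervals treat peaks of a gene as independent. The ZNF share in 3′ UTRs also depended on placing and was 18.7% by peak end. Peaks of other genes were placed by midpoint only. Coding sequence made up 45.9% of ZNF transcript bases and 46.7% of those of other genes, so the makeup of the transcripts was alike by this measure. Within 400 bases of the coding end stood 121 ZNF peaks, 23.8% (20.3 to 27.7), against 30.1% (29.5 to 30.7) in other genes.

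By exon, the shares of ZNF and other genes lay further apart, with no test made. The last exon held 310 ZNF peaks, 60.4% (56.1 to 64.6), against 35.7% (35.1 to 36.3) in other genes. It also held 73.3% of ZNF transcript bases against 53.0% in other genes, so the last exon carried fewer peaks than its bases in both sets, with a ratio of peak share to base share of 0.824 and 0.674. Exons over 400 bases held 80.5% (76.9 to 83.7) of ZNF peaks and 84.1% of ZNF bases, against 56.7% (56.1 to 57.4) of peaks and 63.2% of bases in other genes. The median exon under a ZNF peak was 2437 bases long, against 564 in other genes.

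**Figure D3:**
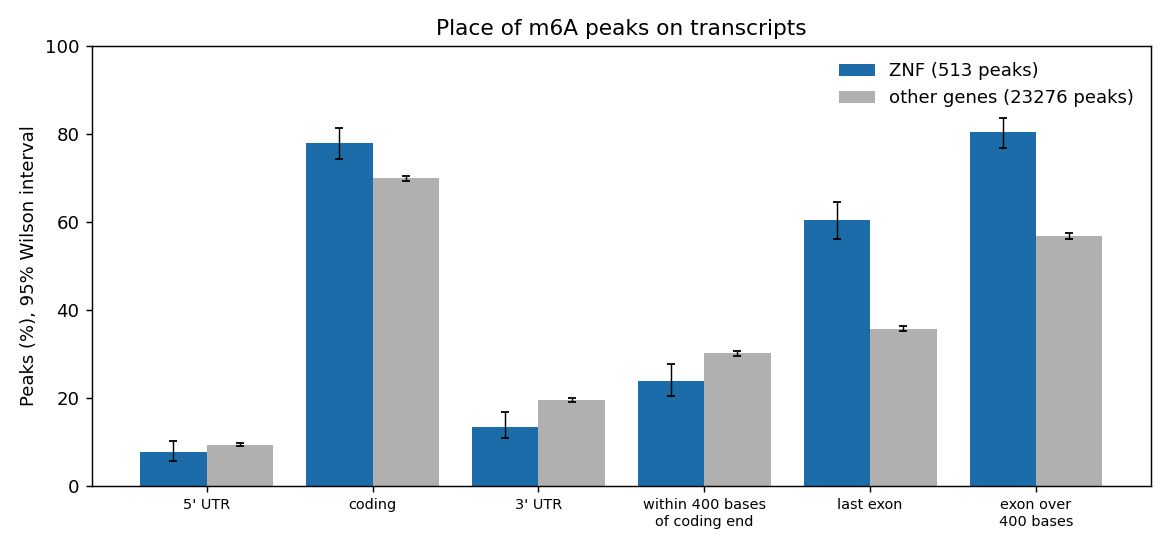
Share of placed m6A peaks (percent, bars from 0, error bars 95% Wilson intervals) by transcript region, distance to the coding end and exon, for 513 ZNF peaks (blue) and 23276 peaks of other genes (grey). ZNF peaks are higher in coding sequence (78.0% against 69.9%), in last exons (60.4% against 35.7%) and in exons over 400 bases (80.5% against 56.7%), and lower in 3′ UTRs and near the coding end.

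Along the whole transcript peaks of both sets leaned towards the 5′ end. The median midpoint lay at 0.307 of the length for ZNF peaks and at 0.319 in other genes. Taken as the median of per-gene medians it was 0.334 for ZNF genes, so these values do not set ZNF genes apart. ZNF transcripts were longer, with a median of 3797 bases against 3263, and carried 0.644 peaks per kb against 0.713. Over the 179 placed genes longer transcripts had more peaks (Pearson's r = 0.604, Spearman's rho = 0.548), a description across genes, which are not independent replicates.

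Finger patterns were found in the translated sequence of 172 placed genes as the cysteine and histidine spacing of the C2H2 finger. Of 385 coding peaks in these genes 192 had their midpoint between the first and the last finger, 49.9% (44.9 to 54.8), while this span made up 56.4% of coding bases. Before the fingers stood 126 peaks (32.7%) on 31.8% of coding bases, and after them 67 peaks (17.4%) on 11.9%. Peak density was 0.956 per kb in the finger span, 1.11 before it and 1.58 after it. In genes such as ZNF106 and ZNF638 the span joins scattered fingers and is no tight array.

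Genes with more fingers had somewhat fewer peaks. The 86 placed genes with 10 or more fingers had a mean of 2.45 peaks and a median of 2, and the 93 genes with fewer had a mean of 3.25 and a median of 3. Across the 179 genes the number of fingers and of peaks had r = −0.202 and rho = −0.229. In the finger span itself, density was 0.780 peaks per kb in genes with 10 or more fingers and 1.33 in genes with fewer. Before the span it was 0.970 and 1.24, and after it 1.17 and 1.69. In genes with fewer fingers the span was thus not sparser in peaks than the coding sequence before it. Genes with few fingers include long proteins with scattered fingers, such as ZNF609 with 1 and ZNF644 with 7, so finger number and the kind of gene cannot be told apart here.

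GGACT was present in 99 of the 513 placed ZNF peaks, 19.3% (16.1 to 22.9), against 22.8% of all placed peaks and 22.9% (22.4 to 23.5) of those of other genes. Moved by 100 bases, windows of the same length held it in 99 of 495 cases towards the 5′ end and in 97 of 511 towards the 3′ end in ZNF genes, and in 21.9% and 21.0% in other genes. The median ZNF peak was 176 bases long, so most of these windows still held part of their own peak. Their near-equal shares therefore cannot show whether GGACT was enriched in peaks over their near surroundings. Moved by 200 bases, ZNF windows held GGACT in 90 of 473 cases towards the 5′ end and 90 of 503 towards the 3′ end. At 400 bases the ZNF shares were 16.7% and 15.2%. The 95% intervals at both distances overlapped that of the peaks, and moved windows could also fall on neighbouring peaks. Over whole transcripts the density of GGACT was 1.18 per kb inside ZNF peaks and 0.822 outside, and 1.41 and 0.910 in other genes.

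Within the finger span GGACT was sparse. Its density there was 0.785 per kb inside peaks and 0.646 outside, while the rest of ZNF coding sequence had 1.46 inside and 1.14 outside. The highest densities among genes with 3 or more peaks were those of ZNF45, ZNF142 and ZNF576. ZNF142, with 31 finger patterns, had 5 GGACT in its peaks, 3 of them in the peak from 2567 to 2749. The peak of ZNF644 from 3800 to 4198 held both stretches printed above for that gene.

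The 28 GGACT that lay in finger spans inside peaks came from 22 genes and fell at recurring places. Of these 15 overlapped a finger pattern, 8 at the cysteine pair, 6 at the histidine pair and 1 between the pairs, and 13 lay between patterns. Counted from the first base of the first cysteine codon as 0, 7 motifs in 7 genes began at base 5, which runs into the codon of the second cysteine, and 6 in 5 genes began at base 55, just before the last histidine codon. Base 5 was found in ZNF316, ZNF331, ZNF337, ZNF689, ZNF764, ZNF791 and ZNF84, and base 55 in ZNF16, ZNF182, ZNF274, ZNF460 and ZNF700, the last with 2. The motif of ZNF622, counted at the cysteine pair, began at base −4 and so lay mostly before the pattern. Together these places took 13 of 28 motifs (46.4%) inside peaks and 36 of 107 (33.6%) in finger spans outside peaks, so they recur in finger sequence whether or not a peak lies there.

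Linker words were more frequent in ZNF peaks than in those of other genes. AAACC was present in 157 ZNF peaks, 30.6% (26.8 to 34.7), against 15.9% (15.4 to 16.4) in other genes, and was the most frequent DRACH word in ZNF peaks, with 228 of its matches or 10.999% of all. In other genes it made up 4.67%, and the first place was taken by ggaca at 8.74%. The longer linker word GAGAAACC was present in 69 ZNF peaks, 13.5% (10.8 to 16.7), against 127 peaks, 0.546%, in other genes. Searches were made on the transcript strand, and GAGAAACC contains AAACC. Any DRACH word was present in 96.1% of ZNF peaks and 94.8% of the peaks of other genes, so at this peak length it separates little.

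Linker words were nonetheless no denser inside peaks than outside them in the finger span. AAACC stood at 3.52 per kb inside peaks and 4.17 outside, and GAGAAACC at 1.73 and 1.84. In other ZNF coding sequence AAACC stood at 1.46 inside and 1.96 outside. Over whole ZNF transcripts both words were denser inside peaks, AAACC at 2.40 per kb against 2.01 outside and GAGAAACC at 0.852 against 0.508.

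**Figure D4:**
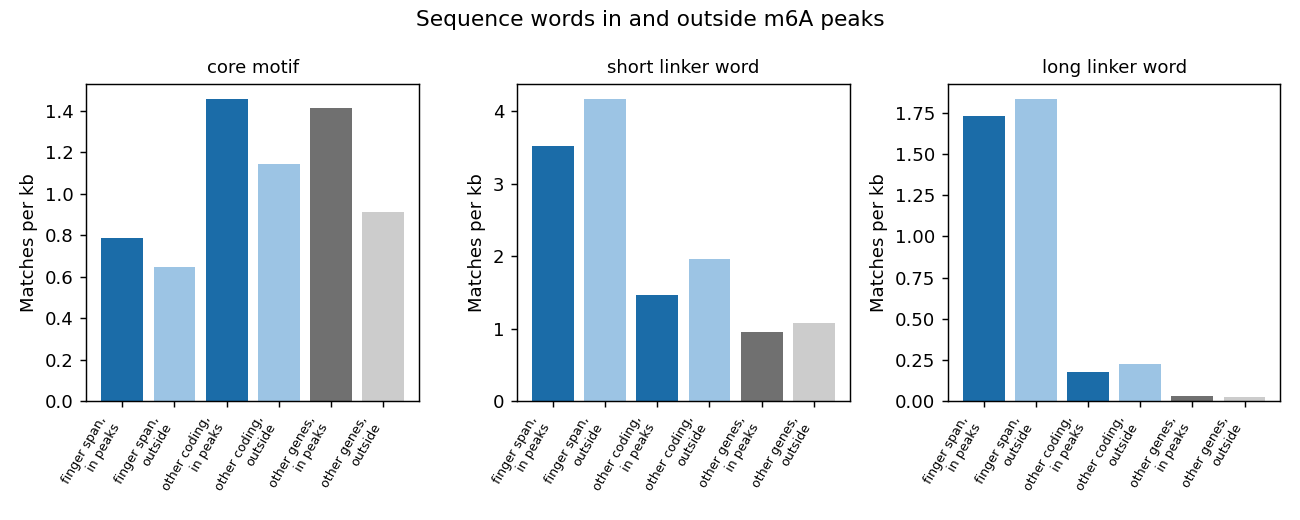
Matches per kb (bars from 0, each panel with its own scale) of the GGACT core motif, the short linker word AAACC and the long linker word GAGAAACC, inside and outside m6A peaks, in the ZNF finger span, other ZNF coding sequence and whole transcripts of other genes. The core motif is lower in finger spans (0.785 and 0.646) than in other ZNF coding sequence (1.46 and 1.14), whereas both linker words are highest in finger spans and there not higher inside peaks.

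Chromosome 19 held 64 of the 199 genes (32.2%), and its ZNF genes had a lower mean number of peaks. They had 152 peaks, a mean of 2.38 per gene, against 426 and 3.16 for the 135 genes elsewhere, while the median was 2 in both. A peak was listed for 65 of 246 protein-coding ZNF genes annotated on chromosome 19, 26.4% (21.3 to 32.3), and for 133 of 263 elsewhere, 50.6% (44.6 to 56.6), beside 44.6% of all 20056 protein-coding genes. These counts use current RefSeq symbols. No expression value was in the tables, and the part of low expression in these shares was not tested.

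The peaks of chromosome 19 genes also lay more often in the last exon. The last exon held 76.9% (69.0 to 83.3) of them against 54.8% (49.8 to 59.7) elsewhere, and their genes had a median of 11 fingers against 8. The share of transcript bases in the last exon was not computed by chromosome. GAGAAACC was present in 19.2% (13.4 to 26.8) against 11.5% (8.67 to 15.1) of peaks. GGACT was present in 26 of 130 against 73 of 383. Placed coding shares were 81.5% (74.0 to 87.3) and 76.8% (72.3 to 80.7), and none of these differences was tested.

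Some ZNF genes are near-identical copies, so reads could be assigned to either. Of the 513 placed ZNF peaks 80 (15.6%) held at least 1 stretch of 50 bases found also in a transcript of another gene, and in 19 (3.70%) every such stretch was shared. In other genes these shares were 10.8% and 3.72%. The other gene could be any annotated gene, as with FBXO16 for peaks of ZNF395, and genes overlapping at the same locus were not set apart. The shares therefore do not measure near-identical copies alone. The paralogs ZNF286A with 6 peaks and ZNF286B with 4 shared most of their peak sequence with each other and with another annotated gene, and their counts are uncertain.

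Among 12 partners of KRAB-mediated silencing 11 carried m6A peaks, 59 in all with a median of 6, beside 44.6% of protein-coding genes and a median of 2 peaks over all genes with peaks. This list was chosen with earlier results known, and was not matched for transcript length or expression. The difference was not tested. ATRX had 10, CBX5 and CHD3 had 8 each, ATF7IP had 7, MPHOSPH8 and FAM208A had 6 each, and SETDB1 had 4. TRIM28 itself had none and was listed in both CLIP replicates. CBX5 was listed in CLIP replicate 2 alone, beside 5.73% of all genes with m6A peaks, and the rest of the list in neither replicate. Other finger families gave medians of 3 peaks per gene for 35 ZBTB genes, 3 for 5 ZKSCAN genes, 2 for 9 ZFP genes, 1 for 9 ZSCAN genes, 3.5 for 10 KLF genes and 6.5 for 4 SP genes, beside 2 for ZNF genes.

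TRMT10A CLIP clusters fell on few ZNF genes. Replicate 1 listed 1675 clusters with 342690 conversion events, the file's term for what it counts per cluster, and replicate 2 listed 2183 with 496030, each cluster with at least 2 events. ZNF genes held 9 clusters with 406 events (0.118%) in replicate 1 and 14 with 415 events (0.0837%) in replicate 2. Of the 199 genes with m6A peaks 3 were listed in replicate 1 and 4 in replicate 2, beside 3.57% and 5.73% of all genes in the m6A table, and 2 were in both (ZNF148 and ZNF704), beside 2.23%. With so few genes these counts give no result about ZNF genes as a set.

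Counting ZNF genes without a peak too, 7 were listed in replicate 1 and 9 in replicate 2. The 6 in both made up 85.7% of the first list and 66.7% of the second, beside 73.7% and 52.5% over all listed genes. With lists of 7 and 9 genes this gives no result about ZNF genes as a set. The 6 genes were ZNF148, ZNF425, ZNF503, ZNF703, ZNF704 and ZNF767P.

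Most of the events lay over small RNA sequences inside introns. ZNF704 had 336 events in replicate 1 and 335 in replicate 2, from 1 intron cluster each, inside RN7SL308P, a copy of the 7SL RNA of the signal recognition particle, on the same strand. ZNF767P had 28 and 25 events in an intron over the cysteine tRNA gene TRC-GCA19-1. ZNF425 had 20 and 19 events in an intron, inside the 7SL copy RN7SL521P. These clusters took 384 of the 406 ZNF events (94.6%) in replicate 1 and 379 of 415 (91.3%) in replicate 2. Reads of multi-copy RNAs can be placed at any copy, so the signal cannot be assigned to the ZNF transcripts.

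Without these, ZNF genes had at most 12 events each in either replicate. ZNF148 had 10 events in replicate 1 and 12 in replicate 2, in an intron at chr3:125339858-125339878 and chr3:125339857-125339878 on the − strand, with no annotated small RNA there. ZNF503 and ZNF703, related corepressors of the same small family, had clusters in coding sequence and no m6A peak. ZNF503 had 4 events in 2 clusters and 10 events in 3 clusters, and ZNF703 had 5 in 2 clusters and 6 in 3 clusters. A coding cluster of ZNF503 was shared, at chr10:75398981-75399028 in replicate 1 and chr10:75398984-75399015 in replicate 2 on the − strand. The middle 30 bases of each are given to show the overlap, in lower case throughout because no base within them is singled out.
ZNF503 replicate 1, chr10:75398990-75399019, − strand: ctcgtcgtctctggccagcgctgccgcggc
ZNF503 replicate 2, chr10:75398985-75399014, − strand: cgtctctggccagcgctgccgcggccgcca

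The other 4 ZNF genes were listed in 1 replicate each, near the lowest event count. ZNF598 had 3 events in replicate 1 and none listed in replicate 2, in a coding cluster at bases 1411 to 1440 of its transcript, 101 bases from its m6A peak at 1141 to 1310. ZNF581 had 4 events in replicate 2 alone, in 3′ UTR clusters 226 and 245 bases from its peak at 743 to 910. ZNF266 and ZNF385B had 2 intron events each in replicate 2. None of these exon clusters of ZNF598 and ZNF581 overlapped an m6A peak of its gene. The other exon clusters lay in ZNF503 and ZNF703, which had no m6A peak to overlap. With so few clusters this gives no result about ZNF genes as a set.

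**Figure D5:**
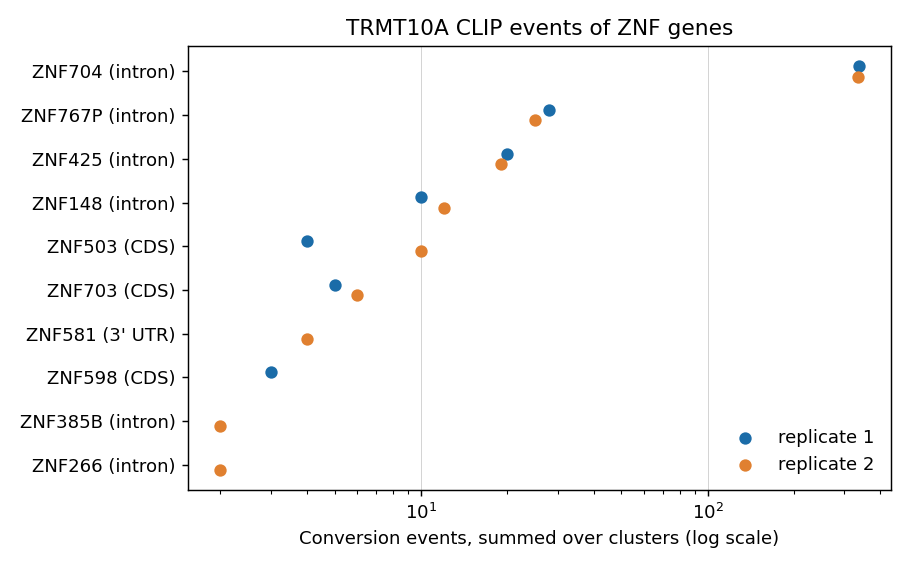
Conversion events of TRMT10A CLIP summed over the clusters of each ZNF gene (log axis), in replicate 1 (blue) and replicate 2 (orange), with the location of the clusters beside the symbol and no point where no cluster was listed. ZNF704 stands apart with 336 and 335 events in a 7SL copy, followed by ZNF767P and ZNF425, and the genes with clusters in exons have 10 events or fewer.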

How the data were processed

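Sequencing was done by the authors on 6 samples of HEK293T cells. The submitters' processing notes name hg38, TopHat2 and Cuffdiff, with no role, and which peak and cluster callers were used is not given. The deposited m6A table gives a RefSeq transcript, start and end per peak in bases, and each CLIP table gives, per cluster, a count of conversion events that was not normalized, per the file headers. Depth of the m6A libraries is unknown.

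In the m6A table the log2 ratio never rises from line to line (0 of 26474), and 9 of 185 motif positions on ZNF lines lay in the peak of their own line. The authors' ratio and motif columns are thus sorted apart from the genes, so log2 ratios were not used by gene, and differences between knockdown and control were not analysed here.

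Members, gene lists and finger words were chosen with earlier results of these data known. Peaks were placed by midpoint on GENCODE 29 transcripts paired with the RefSeq accession and long enough to hold every peak. Where several qualified, protein-coding ones came first, then the longest. Code was tested on simulated data. Named genes are the 12 with most peaks (ties by total peak length, so that ZNF532 and ZNF805, also at 7, were outside the rule and named after their values were seen), the 5 with the longest peaks, the 3 densest in GGACT, those in CLIP, and a list of known roles. Printed stretches and the comparison of moved windows were chosen after values were seen. With 1 library per m6A arm and 2 CLIP replicates of 1 group, no test was made and no p-value is given. Python 3.11.15, pandas 2.3.3 and scipy 1.17.1 were used.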

Additional observations from a re-analysis of the deposited data

How the results depend on the processing

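Of 47 alternative values under 15 settings, 34 stayed within the error or 1.5-fold range set for the reported value and 13 did not. Of the 34, 2 came from a minimum length of 100 bases that removed no peak and so test nothing. Taking every symbol that begins with ZNF left the CLIP counts and the share of coding peaks over fingers exactly as they were. The 5′ UTR share of ZNF peaks was 10.5% by peak start and 3.51% by peak end, and 11.3% and 3.51% with positions moved 100 bases towards the 5′ or the 3′ end, a setting chosen after seeing the data. The 3′ UTR share was 18.7% by peak end and 17.7% moved towards the 3′ end. DRACH in place of GGACT gave 96.1%, and the median of per-gene medians put the relative midpoint at 0.334. With at least 5 events per cluster, 4 ZNF genes were listed in CLIP replicate 1 and 4 in replicate 2. In exons 3 and 3 were listed, and 2 in both. Leaving out a replicate gave 7 to 9 genes in place of 6, which only repeats the count of the remaining replicate and so tests nothing. No paired analysis was possible because the CLIP replicates form 1 group and each m6A arm has 1 library of each kind.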
